A study of Mus musculus with 4 samples.

Results

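Receptor-type protein tyrosine phosphatases were followed as transposon targets in haploid mouse cells that resemble neural stem cells. The group was a set list of 10 Ptpr genes (Ptprd, Ptprt, Ptprg, Ptprm, Ptprk, Ptprn2, Ptprs, Ptprf, Ptpro and Ptpre). It was chosen with earlier results of these data known, and 11 other receptor-type genes are described separately below. Of the 10 genes of the group, 9 are among the 5614 genes that had reads in either library, and Ptpre is not. The cells carried a single chromosome set on a 129Sv background and were derived from haploid embryonic stem cells through embryoid bodies, in N2B27 medium with FGF2, EGF, LDN193189, SB431542 and a ROCK inhibitor (Y-27632, Thiazovivin or both). All 4 samples had received a piggyBac gene trap plasmid with a codon-optimized transposase and G418 selection, and genomic DNA next to the transposon was amplified by splinkerette PCR and sequenced. No untransfected control was analysed here, and the labels give no treatment that separates the libraries. Library 1 and library 2 each pooled 2 samples in 1 table of reads per gene, so no value below has a replicate check and no test was made. The sample titles end in 3 or 5, which the labels leave unexplained. Whether the pooled samples are separate cultures, or readings of the same insertions that would then be counted in each, is therefore not known. Genomic DNA carries no expression markers, so the cell type named in the labels could not be checked in these data.

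Receptor-type phosphatases are membrane-spanning proteins, most of which remove phosphate from tyrosine residues and so oppose tyrosine kinases. Their extracellular parts often resemble cell adhesion molecules, and in the nervous system several of them act in axon growth and in the assembly of synapses. A gene trap is a transposon built to disrupt the transcript of the gene it enters. Where it does so in a haploid cell, no intact copy remains. Reads per gene do not show whether a transcript was disrupted. The piggyBac transposon inserts at the sequence TTAA.

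Of the 10 phosphatase genes, 9 had at least 1 nonredundant read in either library and 7 had reads in both. Each library listed 8 of them. Over all 21035 genes with curated transcripts, 19.8% had reads in library 1 and 15.0% in library 2. The phosphatase genes are long, with a median length of 605 kb against 17.7 kb for all genes, and long genes were listed more often. Genes in both libraries made up 8.25% of all. In the longest of 10 length classes of equal size, 71.6% of genes were listed in library 1, 58.3% in library 2 and 48.3% in both.

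The upstream sequences of the 3 phosphatase genes with 10 or more reads summed over the libraries are shown because they are the 5′ ends of the best-covered members. Each is the 250 bases before the annotated start in RefSeq (build GRCm38.p6, which differs from the authors' mm9), with any TTAA, the piggyBac target letters, in capitals. Ptprt lies at chr2:162661148-162661397 on the minus strand, Ptprm at chr17:67354460-67354709 on the minus strand, and the shown window of Ptprg at chr14:11553303-11553552 on the plus strand.
Ptprt: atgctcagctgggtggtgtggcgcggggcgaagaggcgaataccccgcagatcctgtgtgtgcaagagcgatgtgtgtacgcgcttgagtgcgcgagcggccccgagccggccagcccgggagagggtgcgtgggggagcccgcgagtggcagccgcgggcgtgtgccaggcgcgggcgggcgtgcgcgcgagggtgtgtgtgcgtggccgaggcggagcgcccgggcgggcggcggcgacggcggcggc
Ptprm: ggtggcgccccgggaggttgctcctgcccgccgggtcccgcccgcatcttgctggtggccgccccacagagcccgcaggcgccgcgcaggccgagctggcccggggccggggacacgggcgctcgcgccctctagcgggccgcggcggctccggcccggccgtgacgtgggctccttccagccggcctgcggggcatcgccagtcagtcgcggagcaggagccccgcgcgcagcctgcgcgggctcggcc
Ptprg: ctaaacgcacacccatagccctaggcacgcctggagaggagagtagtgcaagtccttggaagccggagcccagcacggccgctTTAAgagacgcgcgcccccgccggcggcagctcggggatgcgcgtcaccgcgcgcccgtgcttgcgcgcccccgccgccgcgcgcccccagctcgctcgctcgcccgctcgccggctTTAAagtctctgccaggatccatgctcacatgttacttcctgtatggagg

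The windows of Ptprt and Ptprm held 0 TTAA and had a GC content of 76.4% and 81.2%. This window of Ptprg held 2, which begin 167 and 50 bases before the start, and had a GC content of 68.4%. Among the windows of all genes, 49.0% held TTAA (a palindrome, so both strands were covered by the search) and the median GC content was 52.4%. RefSeq windows were matched for 9 of the 10 phosphatase genes, all except Ptprd. Of their 13 windows, 7 held TTAA, and 5 of these 9 genes had TTAA in at least 1 window. The tables give reads per gene with no position, so these letters describe the start of each gene and say nothing of where an insertion lay.

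The MAM-type receptors, which bind the same molecule on a neighbouring cell and associate with cadherin junctions, held the most reads of any type in the group. Ptprt, Ptprm and Ptprk together had 34 reads in library 1 (0.0613% of the library, 95% interval 0.0425 to 0.0857) and 32 in library 2 (0.0656%, 0.0449 to 0.0927). All intervals are exact and cover counting error only, since reads made by PCR without molecular identifiers are not independent molecules. The similar sums came from different genes. Ptprt, which encodes a homophilic adhesion receptor found mainly in the nervous system, had 24 reads in library 1 and 5 in library 2. Ptprm, the gene of another homophilic receptor, had 6 reads in library 1 and 22 in library 2. Ptprk, which encodes the third receptor of this type in the group, had 4 and 5 reads. Ptprt was thus the best-covered phosphatase gene of the group in library 1 and Ptprm in library 2, while Ptprk had near-equal low counts.

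**Figure D1:**
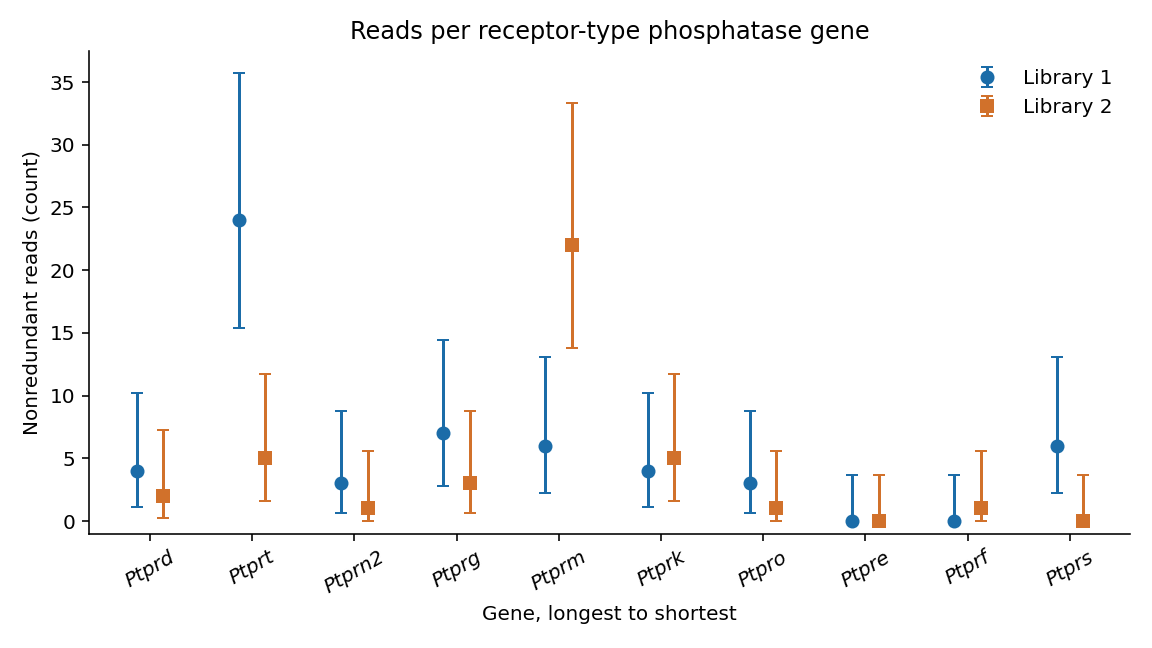
Nonredundant reads (vertical axis, counts) of the 10 phosphatase genes, ordered from longest to shortest, in library 1 (circles) and library 2 (squares); bars are exact Poisson 95% intervals for counting error. Ptprt stands out in library 1 with 24 reads and Ptprm in library 2 with 22, and all other points lie at 7 or fewer.

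As a share of the library, Ptprt was 4.22-fold higher in library 1 than in library 2 (95% interval 1.58 to 14.2). Ptprm was 4.17-fold higher in library 2 than in library 1 (1.64 to 12.6). Both intervals exclude 1 for counting error, but they compare these pools of reads and not conditions. Among genes with at least 10 summed reads, a ratio of at least 4 was taken as leaning, and 3 of the phosphatase genes reached that sum. Of these, 1 leaned to library 1 (Ptprt) and 1 to library 2 (Ptprm). Of all 822 such genes, 50.9% leaned to library 1, 30.5% to library 2 and 81.4% to either. Among the 277 genes with 10 to 40 summed reads and reads in both libraries, 59.9% leaned to either. Leaning by this measure was therefore the usual state of a covered gene and not particular to the phosphatases. Without the 10 leading genes of each library in the totals, the ratio of Ptprt was 2.91 and no longer reached 4, and the inverse lean of Ptprm missed 4 when raw reads were compared without scaling.

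The gene of a carbonic anhydrase-type receptor, Ptprg, whose extracellular domain binds contactins, had 7 reads in library 1 and 3 in library 2. It was the third phosphatase gene to reach 10 summed reads. Its ratio of library shares was 2.05 (95% interval 0.468 to 12.3), a difference not detectable at this depth.

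The LAR-type receptors, which organize presynaptic terminals through partners across the synaptic cleft and through liprins inside the cell, had few reads. Ptprd, Ptprs and Ptprf had 10 reads between them in library 1 and 3 in library 2. Ptprs had 6 reads in library 1 and 0 in library 2, where a floor of 3 reads for a count of 0 allows a share of up to 0.00615%. The exact 95% interval of a count of 0, which is two-sided, reaches 0.00757% there. The interval of Ptprs in library 1, 0.00397 to 0.0236%, overlaps this range. Overlap of separate intervals is not a test, and no ratio interval was computed for a count of 0. Whether Ptprs differed between the libraries was therefore not tested. Ptprd had 4 and 2 reads. Ptprf, the gene of LAR itself, had 0 reads in library 1 and 1 in library 2, at or under the floor in both. Of the 3 genes, only Ptprd had reads in both libraries.

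The remaining genes of the group each stand for a different type. Ptprn2, which encodes phogrin, a protein of dense-core secretory vesicles, had 3 reads in library 1 and 1 in library 2. Ptpro, which encodes a receptor with fibronectin repeats found in podocytes and neurons, also had 3 and 1. Ptpre, which encodes a receptor with a short extracellular part, was listed in neither library, which by the floor of 3 reads allows a share of up to 0.00541% in library 1 and 0.00615% in library 2, and by the exact 95% interval up to 0.00665% and 0.00757%. Ptprn2 and Ptpro each had a share 2.64-fold higher in library 1 (95% interval 0.212 to 138), so neither count separates the libraries.

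Most phosphatase genes therefore had a few reads per library. Their median was 4 reads in library 1 and 1.5 in library 2, with genes at 0 included, against 2 and 1 in the longest length class and 0 and 0 over all genes. That class has a median length of 190 kb, well below that of the group. The 6 members over 500 kb had a median of 5 and 4 reads, against 6 and 3 for all genes over 500 kb. In library 1, all 8 listed members had at least 3 reads. In library 2, 3 of the 8 (Ptprn2, Ptprf and Ptpro) had exactly 1 read. At 2 or more reads there were 8 members in library 1 (background 9.19%) and 5 in library 2 (6.07%). In the longest length class 50.8% and 35.4% of genes reached 2 reads, and over 500 kb 88.5% and 74.4% did. At 10 or more reads there was 1 member in each library, Ptprt and Ptprm, against a background of 2.37% in library 1 and 1.4% in library 2, and of 13.5% and 7.46% in the longest length class. In sum the group had 57 reads in library 1 (0.103% of 55442 nonredundant reads, 95% interval 0.0779 to 0.133) and 40 in library 2 (0.0821% of 48750, 0.0586 to 0.112). A single gene held much of each sum. Ptprt had 42.1% of the group's reads in library 1 and Ptprm 55.0% in library 2, which leaves 33 and 18 reads without them.

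Ptprt had as many reads as, or fewer than, 343 genes of the 4184 listed in library 1, itself included (8.2%). The place of Ptprm in library 2 was 198 of 3168 by the same count (6.25%). Ptprg, the next member of library 1, stood level with or below 613 genes (14.7%). In library 2, Ptprt and Ptprk, both at 5 reads, were level with or below 478 genes (15.1%).

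Gene length orders the group only in part. Lengths here are those of GRCm38.p6 genes. The 6 members over 500 kb (Ptprd, Ptprt, Ptprn2, Ptprg, Ptprm and Ptprk) had reads in both libraries. Of all 227 genes over 500 kb, 93.0% were listed in library 1, 89.0% in library 2 and 88.1% in both. Of these long members, 1 of 6 reached 10 reads in each library, against 38.8% and 16.3% of all genes over 500 kb. Of the 4 shorter members, 1 had reads in both libraries (Ptpro), against 8.25% of all genes, too few genes to set a share by. Across the 10 members, Spearman's rho of reads and length was 0.429 in library 1 and 0.587 in library 2; over all 21035 genes it was 0.492 and 0.429. These are descriptions across genes, which share their library and are not replicates.

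**Figure D2:**
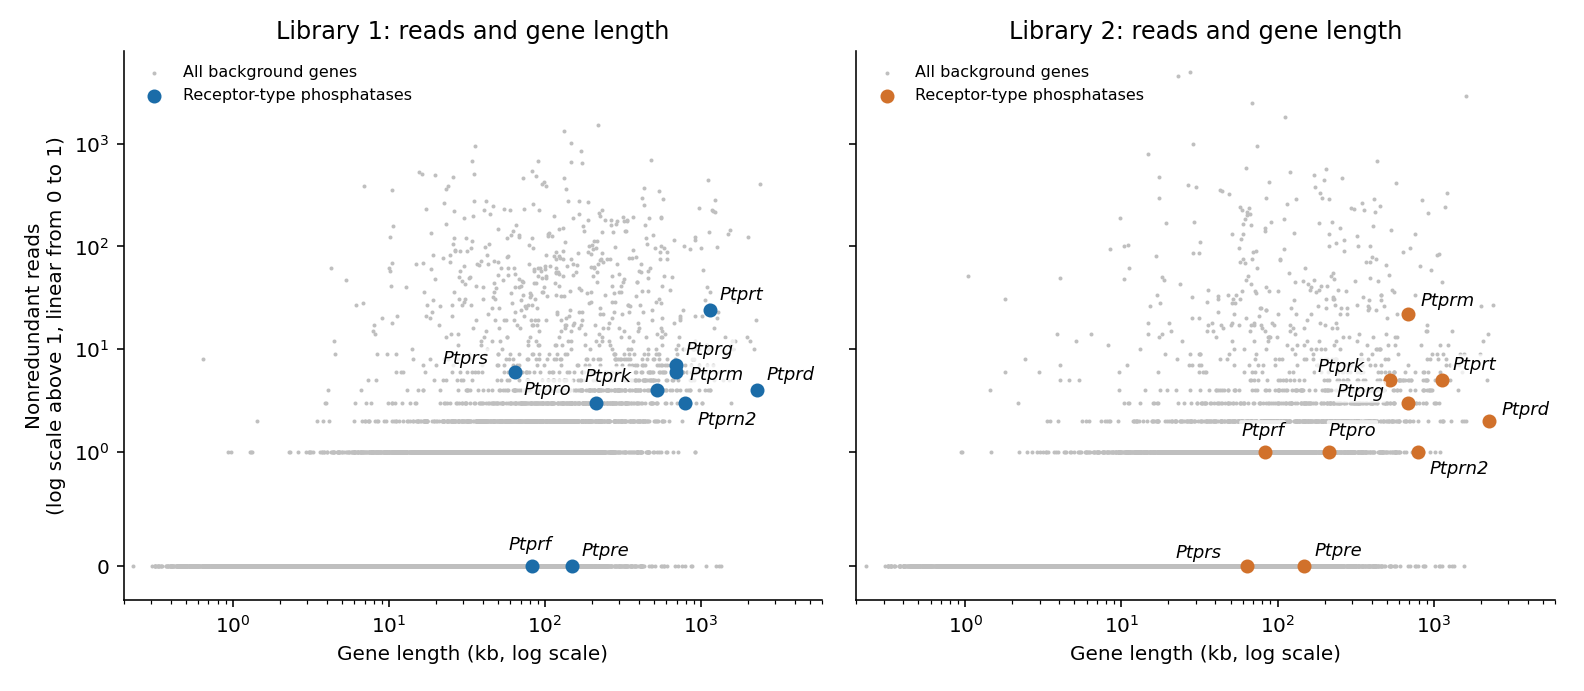
Nonredundant reads against gene length (kb, log scale) for all 21035 background genes (grey) and the 10 phosphatase genes (colour), library 1 on the left and library 2 on the right; the vertical axis is logarithmic above 1 and linear from 0 to 1. Ptprd, at 2.27 Mb, lies far right at 4 and 2 reads, while Ptprs, at 64.1 kb, has 6 reads in library 1 and 0 in library 2.

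Ptprd had the fewest reads for its length of the listed members in either library. It ranked 2 of 21035 genes by length, at 2.27 Mb, and had 1.76 reads per Mb in library 1 (95% interval 0.48 to 4.51) and 0.881 in library 2 (0.107 to 3.18). Genes over 500 kb had a median of 8.23 reads per Mb in library 1 (quartiles 4.55 and 19.5) and 4.25 in library 2 (1.77 and 7.88). In library 1, 89.9% of these genes had at least as many reads per Mb as Ptprd, and in library 2, 89.0% did. Dmd, which ranks 1 by length, had 406 and 27 reads, and Cntnap2, which ranks 3, had 19 and 14. Robo2, which ranks 12, had fewer reads than Ptprd, with 3 and 0. Fhit, which ranks 10, had 10 and 2, level with Ptprd in library 2. All other genes at ranks 1 to 12 had more reads than Ptprd in both libraries. Without regard to length, 76.7% of genes over 500 kb had at least 4 reads in library 1 and 74.4% at least 2 in library 2. The tables name 1 transcript for Ptprd, whereas RefSeq lists 7 curated ones, and the length of the gene model used for counting is not given in the sources used here. Its part in the low value was not tested.

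Among the other long members, Ptprn2 also lay low on the scale of reads per Mb. It had 3.79 in library 1 and 1.26 in library 2, and 79.3% and 85.9% of genes over 500 kb had at least as many. Ptprg and Ptprt in library 2 and Ptprg, Ptprm and Ptprk in library 1 lay near the median, between 4.36 and 10.2 reads per Mb. Ptprt had 21.1 reads per Mb in library 1 (95% interval 13.5 to 31.3), a value reached by 24.2% of these genes. Ptprm had 32.0 in library 2 (20.1 to 48.4), reached by 9.69%, and Ptprk 9.57, reached by 18.9%. The highest value per length in the group was that of Ptprs, the shortest member, with 93.6 reads per Mb in library 1 (34.3 to 204) from its 6 reads. In library 2 Ptprs had 0 reads per Mb (0 to 57.5). Its length is 64.1 kb, so the values of genes over 500 kb are no reference for it. No per-Mb values of genes near its length are given here.

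**Figure D3:**
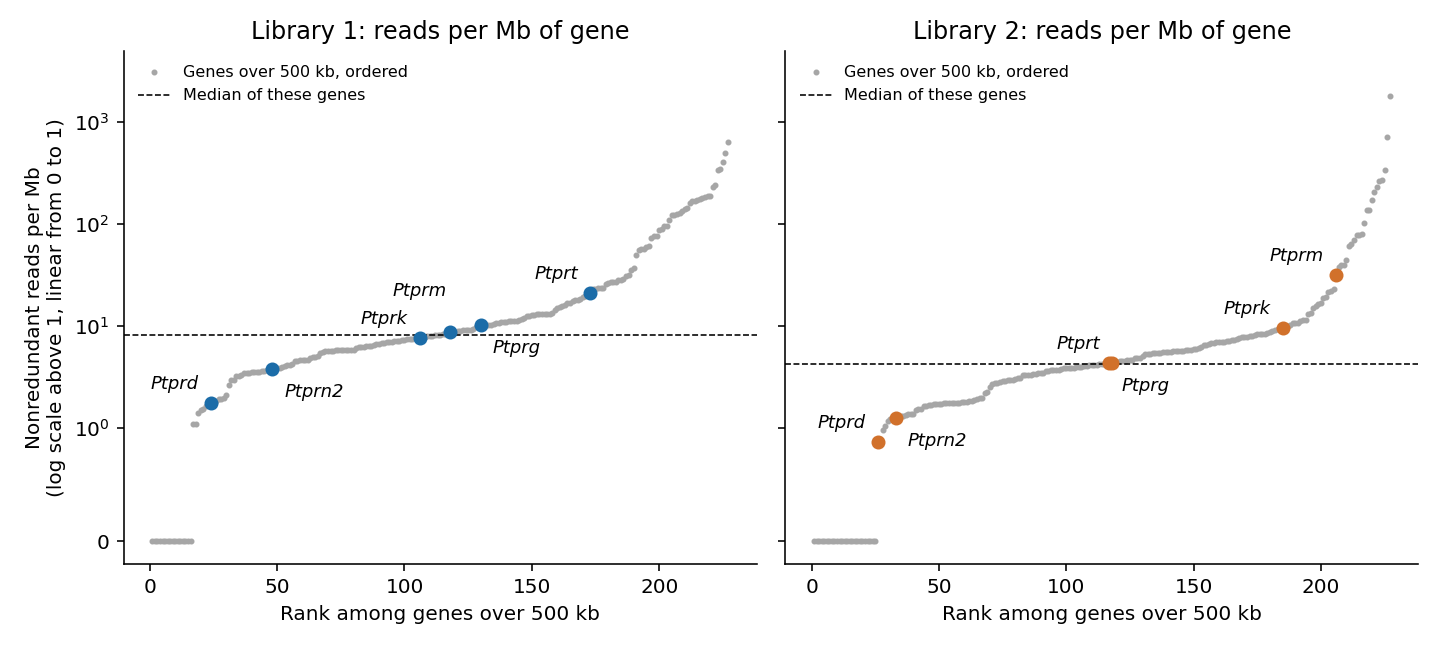
Nonredundant reads per Mb of gene for the 227 genes over 500 kb, ordered from low to high (grey), with the 6 long phosphatase genes in colour; the vertical axis is logarithmic above 1 and linear from 0 to 1, and the dashed line is the median. Ptprd lies near the low end in both libraries (1.76 and 0.881), Ptprt above the median in library 1 (21.1) and Ptprm in library 2 (32.0).

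Redundant reads, taken here to count repeated copies as well because no definition was given, described the same genes on another scale. Over the group there were 268 redundant reads in library 1 and 154 in library 2, or 4.7 and 3.85 per nonredundant read. The whole libraries had 15.8 and 26.7, sums in which genes with many reads weigh most. Genes with 3 to 7 nonredundant reads had medians of only 1.33 and 1.67, so the group was not low beside genes with few reads. Ptprt had 176 redundant reads in library 1, or 7.33 per nonredundant read, and 5 in library 2, or 1. Ptprm had 6 in library 1, or 1 per nonredundant read, and 134 in library 2, or 6.09. Each gene thus had more redundant reads per nonredundant read in the library where it held the most reads of the group. Genes with 20 to 30 nonredundant reads had a median of 4.78 redundant per nonredundant read in library 1 (quartiles 1.65 and 6.87) and 2.78 in library 2 (1.9 and 4.9). Both Ptprt in library 1 and Ptprm in library 2 were above the upper quartile of their class.

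Among the members with few reads, Ptpro had 40 redundant reads from 3 nonredundant ones in library 1, or 13.3 each, and Ptprk had 20 from 4, or 5. The class with 3 to 7 nonredundant reads had a median of 1.33 in library 1 and an upper quartile of 2.71. Ptprg had 13 redundant reads in library 1. The other 4 listed members of library 1 (Ptprd, Ptprm, Ptprn2 and Ptprs) had equal counts of both kinds, as did 5 of the 8 in library 2. With redundant reads, 4 members reached 10 reads in library 1 (Ptprt, Ptpro, Ptprk and Ptprg; background 4.35%) and 1 in library 2 (Ptprm; background 3.14%).

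**Figure D4:**
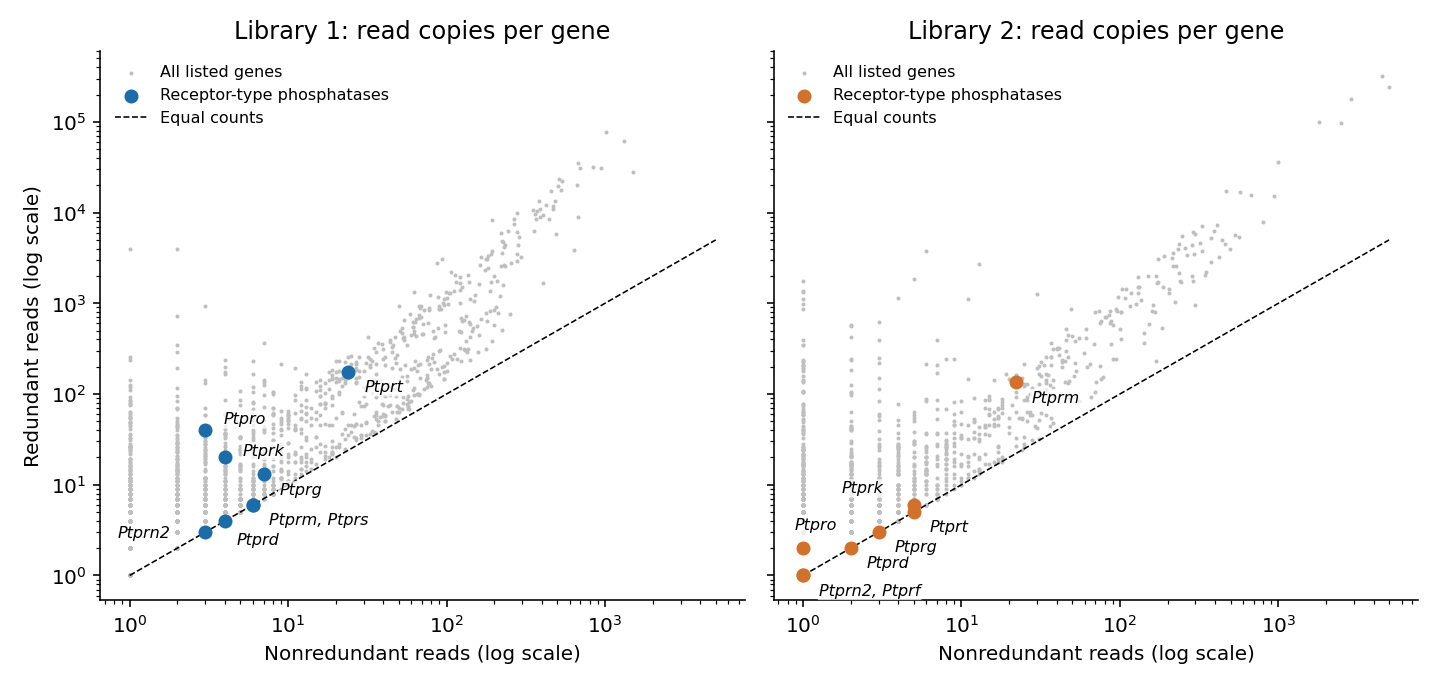
Redundant against nonredundant reads per gene (both log scales) for all listed genes (grey) and the listed phosphatase genes (colour), library 1 on the left and library 2 on the right; the dashed line marks equal counts. Ptprt in library 1 (24 and 176) and Ptprm in library 2 (22 and 134) lie well above the line, Ptpro in library 1 (3 and 40) farther above it for its reads, and most others on or next to it.

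RefSeq places 32 other genes across the spans of the 10 phosphatase genes, with no protein coding gene among them, and 0 of these had reads in either table. Among them is Mir153, a neuronal microRNA gene within Ptprn2. Reads listed under the phosphatases were not also listed under a gene that overlaps them. The authors' annotation may not hold all of these genes. Genes without curated transcripts were rarely listed at all, as 5601 background genes had reads, beside 5614 listed genes in all. The 0 of 32 therefore says little about how reads were assigned.

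The other 11 receptor-type phosphatase genes had reads in 8 cases, 7 in library 1 (63.6%) and 4 in library 2 (36.4%), against 19.8% and 15.0% of all genes and 71.6% and 58.3% of the longest length class. They are shorter than the 10 genes, with a median length of 113 kb against 190 kb in that class, and had a median of 1 read in library 1 and 0 in library 2. Ptprn, which encodes the islet antigen IA-2 and is the closest relative of Ptprn2, had 27 nonredundant and 137 redundant reads in library 1 and 0 in library 2. With its 27 reads taken as counted, its share was at least 7.91-fold higher in library 1 against the floor of 3 reads. At 17.5 kb it is far shorter than any of the 10 genes, yet it had more reads in library 1 than each of them. Ptprz1, a receptor of neural progenitors and glia that shares the carbonic anhydrase domain with Ptprg, had 5 reads in library 1 and 0 in library 2. Ptprq had 3 and 2 reads, Ptprr and Ptprv (a transcribed pseudogene in RefSeq) 1 and 1, Ptprb 0 and 1, and Ptprc, the leukocyte receptor CD45, and Ptprh 2 and 0. Ptpra, the closest relative of Ptpre, was listed in neither library, and neither were Ptprj and Ptpru. Ptpru is also of the MAM type, so the reads of that type came only from genes of the group. Of all 21 receptor-type genes, 17 were listed in either library and 10 in both.

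The 17 non-receptor phosphatase genes, whose products share the catalytic domain but are not receptors, had 3 listed members in each library. That is 17.6%, close to the background of 19.8% and 15.0%. Their median length is 59.1 kb against 17.7 kb for all genes, so this compares genes of unlike length. Ptpn23, which acts in endosomal sorting, led with 13 and 1 reads. Ptpn13 had 6 and 0, Ptpn6 (the phosphatase SHP-1 of blood cells) 1 and 1, and Ptpn14 0 and 1. The other 13 genes, Ptpn11 among them, were in neither table.

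Genes of extracellular partners of the receptors had reads in 7 of 22 cases in library 1 (31.8%) and 5 of 22 in library 2 (22.7%), against 19.8% and 15.0% of all genes. All the listed ones were contactins, interleukin-1 receptor relatives or Ntrk3. The contactin genes are partners of Ptprg. Of these, Cntn5 had 98 reads in library 1 and 5 in library 2, Cntn4 had 21 and 0, and Cntn6 had 3 and 1. Ntrk3, which encodes the neurotrophin receptor TrkC, a partner of Ptprs, had 2 and 78. Il1rapl1, a partner of Ptprd, had 5 and 7 reads. The Slitrk and Lrfn genes on the list, which encode other synaptic partners of the LAR type, had no reads in either library. The Slitrk genes span 4.25 to 12.5 kb, against 371 kb to 1.27 Mb for the contactin genes. Lrfn2 (166 kb) and Lrfn5 (335 kb) are longer than the Slitrk genes. The median length of this list is 44.8 kb, and the part of length in which partners were listed was not tested.

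Genes of intracellular partners and substrates were listed for 15 of 19 members in library 1 and 5 of 19 in library 2, with 4 and 2 at 10 or more reads. Over all genes, 19.8% and 15.0% were listed and 2.37% and 1.4% had 10 or more reads. The median length of this list is 77.0 kb, against 17.7 kb for all genes. Like the other lists, it was chosen with earlier results of these data known. Its share is therefore not independent evidence about partners of the phosphatases. Enah, an actin regulator of the Ena family tied to LAR signalling, had 152 reads in library 1 and 2 in library 2. Cdh2, the N-cadherin gene, had 67 and 0. Bcar1, which encodes the adaptor p130Cas, had 50 and 0, and the kinase gene Abl1 had 22 and 6. Ppfibp2, a liprin-beta gene, had 1 and 19. This list reached 78.9% listed in library 1 and 26.3% in library 2, at a median of 1 and 0 reads, and 7 of its 15 listed members in library 1 had exactly 1 read.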

How the data were processed

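Reads per gene were analysed from 2 tables, each of a library that pools 2 samples (55442 and 48750 nonredundant, 877870 and 1300140 redundant reads). Both deposited columns hold raw whole-number counts with no normalization, per the file headers and the values. CASAVA, BWA and the build mm9 appear in the submitters' processing notes, without versions. How reads were filtered and assigned to genes, and how nonredundant was defined, is not given in the sources used here. A gene not in a table was taken to have 0 reads.

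Symbols were matched to RefSeq (GRCm38.p6) by transcript, then symbol or synonym, for 4181 of 4184 and 3166 of 3168 genes. All 10 phosphatase genes matched. The background was the 21035 genes with curated NM transcripts. Its lengths served to order genes. Shares have Clopper-Pearson, and ratios of shares conditional binomial, 95% intervals. A lean to a library is a ratio of at least 4 among genes with 10 summed reads, with 0 reads set to a floor of 3. Code was tested on simulated data. Python 3.11.15, SciPy 1.17.1 and pandas 2.3.3 were used.

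All 10 genes are named, as are all listed receptor-type genes and up to 5 genes of each other list by summed reads. Genes named beside these (Dmd, Cntnap2, Robo2, Fhit, Mir153 and genes with 0 reads) were chosen after their values were seen. The members and lists were chosen with earlier results of these data known. Protein features of the members were planned and are not analysed here. Alternatives were other read minima, redundant reads, other folds, totals without the 10 leading genes and protein coding genes only. The comparisons with genes over 500 kb, per Mb and over 10 to 40 summed reads were chosen after seeing the data.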

Additional observations from a re-analysis of the deposited data

How the results depend on the processing

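The number of phosphatase genes at 10 or more reads, 1 in each library, depends on the minimum. At 1, 2 and 5 reads it was 8, 8 and 4 in library 1 and 8, 5 and 3 in library 2; at 20 reads it stayed 1 in each. With redundant reads it was 4 in library 1 and 1 in library 2. The group's sum fell to 33 in library 1 without Ptprt and 18 in library 2 without Ptprm, and was 268 and 154 in redundant reads. Lean to library 1 held for 2 genes at a 2-fold ratio, 0 at 8-fold, 4 with redundant reads and 0 without the 10 leading genes. Lean to library 2 held for 0 genes at 8-fold and 0 with raw reads, and for 1 in the other settings. With redundant reads, the ratio of library 1 to library 2 was 52.1 for Ptprt, 0.0663 for Ptprm and 4.94 for Ptprk, which had 0.703 with nonredundant reads; the cause was not tested. The other ratios stayed within their counting intervals. Protein coding genes alone left the background at 2.37% and 1.4%. No paired analysis was possible because each table pools its samples. Leaving out a sample was not possible for the same reason. Counts under 10 limit all ratios, and a gene with 0 reads cannot be told from one covered too thinly to be seen.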
